A study of Homo sapiens with 3 samples.

Results

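Expression of 10 genes of the activin axis was followed in HepG2, an established cell line from a human liver tumour, after exposure to reduced graphene oxide (rGO) or to the more oxidised graphene oxide (GO). The 10 genes were chosen as a named list: the follistatins FST, FSTL1 and FSTL3, the inhibin beta subunits INHBA, INHBB, INHBC and INHBE, and the activin receptors ACVR1B, ACVR2A and ACVR2B. They are 10 of the 18417 genes measured, and each was read by 1 probe set that carried no other gene's symbol. The genes were selected on results of these same arrays, the log2 differences between GO, rGO and control, so the values below are descriptions.

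Activins are secreted dimers of inhibin beta subunits and belong to the TGF-beta family. They bind a type II receptor, ACVR2A or ACVR2B, which brings in and activates the type I receptor ACVR1B, and the receptor complex then phosphorylates SMAD2 and SMAD3. Follistatin and its relative FSTL3 wrap around the activin dimer and keep it from its receptors, and inhibin, a dimer of a beta subunit with the alpha subunit INHA, competes for the type II receptors. In the liver activin A restrains hepatocyte growth, and INHBC and INHBE are made mainly by hepatocytes.

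The series held 1 array each of GO-exposed cells, rGO-exposed cells and untreated control cells, all of the same line. Cells in MEM medium were exposed for 24 h at each material's own EC20, the dose linked to a 20% effect in viability assays. Concentrations are not in the labels, so it is unknown whether the cells met the same amount of each material. With 1 array per group there was no test and no error from replicates, so precision is limited by array number.

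Values are log2 expression as deposited, with array medians of 6.63 (GO), 6.66 (rGO) and 6.65 (control). A level filter kept 11050 genes, those with a 3-array mean at or above the 40th percentile of gene means, a log2 value of 6.66. Among these genes the robust SD of the difference, a scaled median absolute deviation, was 0.244 between the GO and control arrays, 0.116 between the rGO and control arrays and 0.218 between the exposed arrays. It mixes variation between dishes and arrays with any effect of exposure. All 10 hepatocyte markers measured, among them ALB, AFP, APOA1 and TTR, lay past the filter. Of 6 leukocyte markers 2 did, LYZ and CD68, while PTPRC, CD3E, CD14 and ITGAM lay below it. Their summed linear values were 12203 in the GO array, 11553 in the rGO array and 10552 in the control, with LYZ the main contributor. Of 10 fibroblast, stellate and endothelial markers 4 lay past the filter, and their sums were 1659 in the GO array, 1545 in the rGO array and 1576 in the control. The part of these markers in the results was not tested.

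Of the 10 genes, FSTL3 stood farthest from control. This secreted antagonist of activins and myostatin had a log2 value of 9.84 in the GO array, 8.32 in the rGO array and 8.66 in the control. The GO array was the highest of the 3 and the rGO array the lowest. GO minus control was 1.18, or 2.27-fold, and 13 of the 11050 genes past the filter, FSTL3 included, stood at least as high. GO minus rGO was larger, 1.52 or 2.87-fold, and only 1 other gene past the filter stood as high or higher in that comparison. The rGO array lay below the control with a difference of -0.34, and 1.23% of genes past the filter stood at least as low. In bulk RNA of a cell line, a shift in the share of expressing cells and a shift in RNA per cell cannot be told apart.

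FST, follistatin itself, binds activin A and activin B with high affinity. It stood at 10.95 in the GO array, 10.16 in the rGO array and 10.32 in the control, the same order as FSTL3. The GO difference from control was 0.63, or 1.55-fold, and 1.57% of genes past the filter stood at least as high. The rGO difference was -0.16, and GO minus rGO was 0.79, or 1.73-fold. FST therefore passed 1.5-fold and not 2-fold in both comparisons that hold the GO array.

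FSTL1, a secreted glycoprotein with a follistatin domain that is not a classical activin trap, lay below the level filter in every array. Its values were 5.62 in the GO array, 5.08 in the rGO array and 5.39 in the control. The order was again GO, control, rGO, with 0.23 for GO minus control, -0.32 for rGO minus control and 0.55 between the exposed arrays. Genes below the filter had a robust SD of 0.186 in GO minus control and 0.165 in rGO minus control, so the rGO difference of FSTL1 lay farther out among weakly read genes than its GO difference.

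The 3 follistatins thus shared an order, highest with GO and lowest with rGO. The same order held for 2188 of the 11050 genes past the filter, 19.8%. The values by array are plotted for all 10 genes.

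**Figure D1:**
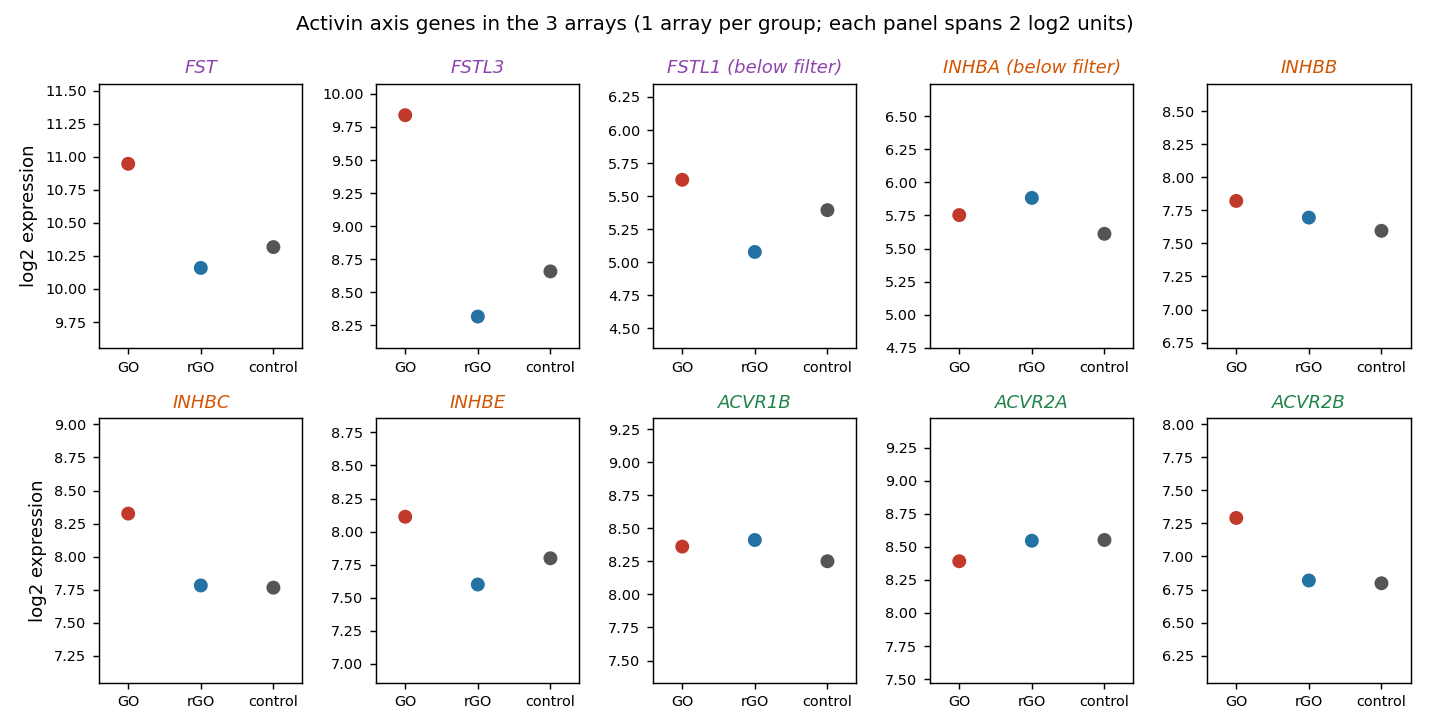
Log2 expression (vertical axis) of each activin axis gene in the GO, rGO and control arrays, 1 point per array and no error bars; each panel spans 2 log2 units around its own middle, so distances compare between panels and heights do not. FSTL3 has the widest gaps, with 9.84 in the GO array, 8.32 in the rGO array and 8.66 in the control, while the points of ACVR1B and ACVR2A lie close together.

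RefSeq promoter sequences (GRCh38.p14) matched 9 of the 10 genes and are shown for the 3 genes that stood highest after GO, FSTL3, FST and INHBC, as the 250 bases before the annotated start, all on the plus strand and written 5′ to 3′. Capitals mark every match, on either strand, to the motifs GGGCGG (GC box), TGACGTCA (cAMP response element), CAGAC (SMAD box), GGAATG (TEAD site), GTAAACA (forkhead site), ACGTG (core of the hypoxia response element) and TGANTCA (AP-1 site), and to the TATA box, spelled with the letters TATAAA.
FSTL3, chr19:676142-676391: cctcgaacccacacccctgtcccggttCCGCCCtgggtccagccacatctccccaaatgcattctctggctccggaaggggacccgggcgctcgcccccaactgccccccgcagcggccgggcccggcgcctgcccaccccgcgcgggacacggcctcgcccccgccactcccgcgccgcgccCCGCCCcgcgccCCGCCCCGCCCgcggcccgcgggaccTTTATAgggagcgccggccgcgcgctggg
FST, chr5:53480379-53480628: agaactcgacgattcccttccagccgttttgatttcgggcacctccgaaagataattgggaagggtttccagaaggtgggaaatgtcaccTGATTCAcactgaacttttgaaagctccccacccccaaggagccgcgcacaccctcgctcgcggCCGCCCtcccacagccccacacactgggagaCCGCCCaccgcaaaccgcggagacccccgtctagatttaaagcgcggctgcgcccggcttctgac
INHBC, chr12:57434534-57434783: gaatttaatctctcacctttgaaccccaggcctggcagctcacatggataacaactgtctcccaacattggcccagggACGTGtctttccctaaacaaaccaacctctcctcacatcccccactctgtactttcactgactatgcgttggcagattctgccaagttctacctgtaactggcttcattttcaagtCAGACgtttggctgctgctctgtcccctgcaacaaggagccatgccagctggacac

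FSTL3 held 4 matches to the GC box, of which the last pair overlap by 1 base, and 1 match to the TATA box 29 to 24 bases before the start, all on the minus strand. FST held 2 matches to the GC box and 1 to the AP-1 site. INHBC held 1 match to the SMAD box, 56 to 52 bases before the start, and 1 to the hypoxia core. Of 35116 RefSeq promoter windows of the same length, 42.6% held a GC box, 10.7% a TATA box, 6.57% an AP-1 site, 38% a SMAD box and 18.5% the hypoxia core. The cAMP response element (1.65% of windows), the TEAD site (11.9%) and the forkhead site (2.98%) had no match in the 3 windows shown. GC content was 80% for FSTL3, 60% for FST and 50.8% for INHBC, against a median of 58% over all windows. No motif was found in all 3 windows, and a match is a string of letters, not a measured site.

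Among the inhibin beta subunits, INHBC differed most from control after GO. INHBC encodes the beta C subunit of activin C, a form that does not signal as activin A does. Its log2 value was 8.33 in the GO array, 7.78 in the rGO array and 7.77 in the control, so the rGO and control arrays were nearly level and the GO array lay above both. GO minus control was 0.56, or 1.47-fold, which falls short of 1.5-fold, and 2.24% of genes past the filter stood at least as high. The rGO difference was 0.02, and it took the opposite sign after quantile normalization, at -0.0039.

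INHBE encodes the beta E subunit, a hepatokine that has been linked to fat storage. It stood at 8.11 in the GO array, 7.60 in the rGO array and 7.80 in the control. The GO array was highest and the rGO array lowest, with differences from control of 0.31 and -0.20. The gap between the GO and rGO arrays was 0.51, or 1.43-fold. INHBC and INHBE are neighbouring genes on chromosome 12. Both had their highest value in the GO array, as did INHBB on chromosome 2 and 43.9% of all genes past the filter.

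INHBB encodes the subunit of activin B. Its values were 7.82 in the GO array, 7.70 in the rGO array and 7.60 in the control, and both exposed arrays lay above the control, by 0.23 and 0.10. The GO difference was within 1 robust SD of all genes past the filter.

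INHBA, whose product forms activin A, was read below the level filter in all 3 arrays, at 5.75 with GO, 5.88 with rGO and 5.61 in the control. It was the only beta subunit with its highest value in the rGO array, where it stood 0.27 above control against 0.14 for GO. At this level background can hide signal, and the robust SD of genes below the filter was 0.165 for rGO minus control.

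Among the 3 receptors, ACVR2B differed most from control after GO. ACVR2B, a type II receptor that binds activins and myostatin, stood at 7.29 in the GO array, 6.82 in the rGO array and 6.80 in the control. Its GO difference from control was 0.49, or 1.41-fold, with 3.14% of genes past the filter at least as high. Its rGO difference was 0.02, which leaves the rGO and control arrays nearly level, as for INHBC.

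ACVR2A, the other type II receptor, stood slightly below control after GO. It had 8.39 in the GO array, 8.55 in the rGO array and 8.55 in the control, a GO difference of -0.16 and an rGO difference of -0.01. The GO difference lay within 1 robust SD (0.244) of genes past the filter, of which 25.7% stood at least as low. ACVR2A was the only one of the 10 genes with its lowest value in the GO array, beside 39.9% of all genes past the filter.

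ACVR1B, the type I receptor also called ALK4, stood at 8.36 in the GO array, 8.41 in the rGO array and 8.25 in the control. Differences from control were 0.11 with GO and 0.16 with rGO. For rGO, 7.51% of genes past the filter stood at least as high, so ACVR1B lay farther out in that narrower distribution than after GO, where the share was 32.4%.

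**Figure D2:**
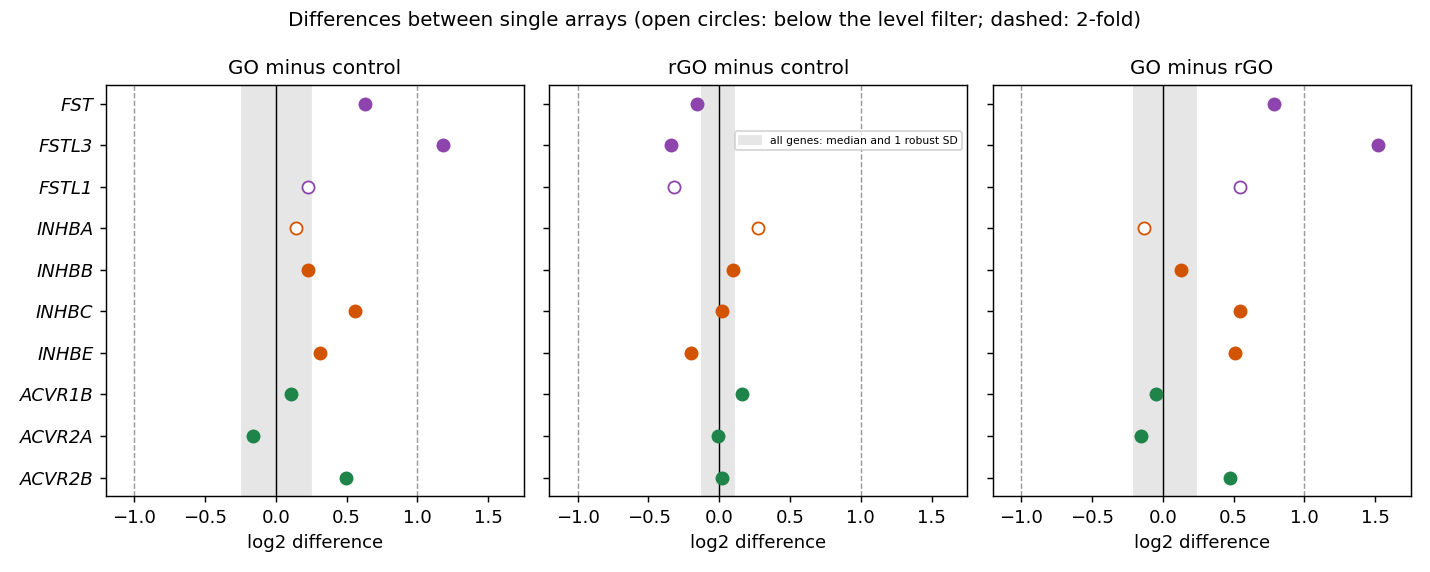
Log2 differences (horizontal axis) of the 10 activin axis genes in 3 panels, from left GO minus control, then rGO minus control, then GO minus rGO, with follistatins in purple, beta subunits in orange and receptors in green. Grey bands show the median of all genes past the level filter with 1 robust SD to each side, open circles are the genes below the filter, and FSTL3 alone lies beyond the 2-fold line, at 1.18 and 1.52.

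Gene by gene, GO minus control was above 0 for 9 of the 10 genes, the exception being ACVR2A. The lowest difference was -0.16 and the highest 1.18. One gene, FSTL3, was at least 2-fold higher (1 of 10, where the share over all 18417 genes without a level filter was 0.174%) and 0 were at least 2-fold lower (0.603%). Among the 11050 genes past the filter, 0.253% were at least 2-fold higher. Of the 8 activin axis genes past the level filter, FSTL3 and FST were at least 1.5-fold higher, 2 genes, beside 1.91% of the 11050 genes past the filter, and 0 were at least 1.5-fold lower, beside 4.23%. The genes were listed with these differences known, so nothing is read from the counts. Among all genes past the filter, 51.1% were above 0 and the median difference was 0.01.

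**Figure D3:**
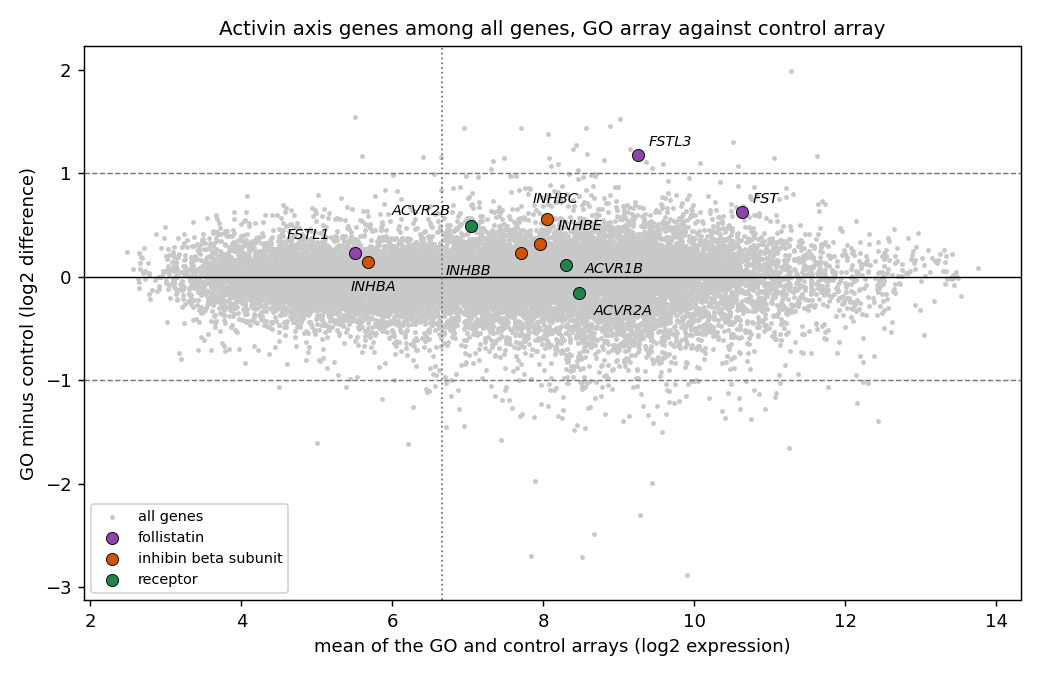
GO minus control (vertical axis, log2 difference) against the mean log2 value of the GO and control arrays (horizontal axis) for all genes in grey and the activin axis genes in colour. Dashed lines mark 2-fold and the dotted line the filter level of 6.66. FSTL3 at 1.18 lies above the upper dashed line and FST at 0.63 below it. FSTL1 and INHBA lie left of the dotted line.

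After rGO, differences of the 10 genes from control ran between -0.34 for FSTL3 and 0.27 for INHBA, with 5 genes above 0 and 5 below, and INHBC moved across 0 under quantile normalization. No gene of the list was at least 2-fold higher or lower (0 of 10, where over all genes without a filter the shares were 0% higher and 0.0217% lower). By role, all 3 follistatins were below control, while 3 of 4 beta subunits (INHBC with the exception just given) and 2 of 3 receptors were above it. Over all genes past the filter, 46.8% were above 0 and the median was -0.01. Both exposures were set against the same control array, so their differences from it are not independent of each other.

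Between the exposures, GO minus rGO was above 0 for 7 of the 10 genes and below it for INHBA, ACVR1B and ACVR2A, beside 52.9% of all genes past the filter above 0. FSTL3 was at least 2-fold higher with GO (1 of 10, where the share over all genes without a filter was 0.201%), and 0 genes were at least 2-fold lower (0.358%). At 1.5-fold, FSTL3 and FST of the 8 genes past the filter stood higher, beside 1.82% of all genes past it, and 0 stood lower, beside 3.2%. FST had 0.79, and FSTL1, INHBC, INHBE and ACVR2B lay between 0.47 and 0.55. This comparison uses the same GO array as the comparison with control, so the high GO value of FSTL3 enters both.

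The pattern of FSTL3 over the 3 arrays was matched with that of the other 11049 genes past the filter, each gene centred on its own mean, by Euclidean distance. The nearest was VNN1, a pantetheinase, at a distance of 0.14, followed by MATN3, a cartilage matrix protein, at 0.17. CLDN6, a tight junction claudin, stood at 0.22, KRTAP3-1, a hair keratin-associated protein, at 0.23, and DEPP1 at 0.25. The median distance was 1.12, and FST stood at 0.54. All 5 were lower in the rGO array than in the control, as FSTL3 was, with rGO differences between -0.43 for VNN1 and -0.04 for KRTAP3-1. They were picked on these same values, so the shared sign is no separate likeness. For MATN3, KRTAP3-1 and DEPP1 the rGO difference lay within 1 robust SD of that comparison (0.116). A likeness over 3 arrays rests on 3 values per gene and is a description.

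INHA, the inhibin alpha subunit that pairs with the same beta subunits, stood at 7.20 in the GO array, 6.72 in the rGO array and 6.58 in the control. Its GO difference was 0.62, or 1.53-fold, and its rGO difference 0.14. Its control value was below 6.66, the filter level, so background may shrink this difference. TGFBR3, the co-receptor betaglycan that strengthens the binding of inhibin to type II receptors, stood at 11.65 in the GO array, 10.80 in the rGO array and 10.79 in the control, a GO difference of 0.86.

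The rest of the pathway was described by lists of its other genes. Of 15 other ligands and convertases measured, 7 lay past the filter. After GO 6 of these were above 0, beside 51.1% of all genes past the filter, with a median of 0.21. At 2-fold 0 stood higher, beside 0.253%, and 0 lower, beside 0.914%. The count and the median include INHA, which passed the filter only through its GO value, so nothing is read from them. With no filter the median was 0.074. INHA was highest, then LEFTY1, an inhibitor of NODAL (0.36). LEFTY2 (-0.02) and the convertase PCSK6 (0.07) were lowest. FURIN, which cuts activin precursors, stood at 0.08 with GO and -0.22 with rGO.

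Of 13 other receptors and co-receptors measured, 8 lay past the filter. After GO 6 of these were above 0, beside 51.1% of all genes past the filter, with a median of 0.24. At 2-fold 0 stood higher, beside 0.253%, and 0 lower, beside 0.914%. TGFBR3 was highest, then the TGF-beta receptor TGFBR2 (0.45). BAMBI, a decoy receptor without a kinase that dampens TGF-beta family signals, was lowest at -0.40, and TGFBR1 stood at -0.11. BAMBI was also below control with rGO, at -0.29.

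Of 13 other proteins with follistatin domains measured, 7 lay past the filter. After GO 5 of these were above 0, beside 51.1% of all genes past the filter, with a median of 0.11. The basement membrane proteoglycan AGRN (0.48) and the proteoglycan SPOCK2 (0.37) were highest. WFIKKN1, which binds myostatin, stood at -0.08 and IGFBP7 at -0.03. With rGO, 5 of the 7 were below control and the median was -0.06, where 46.8% of all genes past the filter were above 0. GO minus rGO was above 0 for all 7, beside 52.9% of all genes past the filter, with a median of 0.21. The other lists leaned the same way. GO minus rGO was above 0 for 7 of 7 other ligands and convertases and 7 of 8 other receptors, with medians of 0.16 and 0.19. It was above 0 for 13 of 17 SMAD branch genes and 10 of 13 targets.

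Of 18 genes of the SMAD2 and SMAD3 branch, 17 lay past the filter. After GO 10 of these were above 0, beside 51.1% of all genes past the filter, with a median of 0.12. SMAD3, one of the signal transducers, stood at 0.63 and the ubiquitin ligase SMURF1 at 0.59. SMAD7, the inhibitory SMAD that these signals induce, had 6.78 in the GO array, 7.71 in the rGO array and 7.84 in the control. Its GO difference of -1.06 made it the only gene of the branch at least 2-fold lower, beside 0.914% of all genes past the filter. The GO value of SMAD7 was close to 6.66, the filter level, so background may shrink this difference. SKIL, a SMAD corepressor that the pathway also induces, stood at -0.42. SMAD2 (0.09) and SMAD4 (-0.03) were close to control.

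The 13 of 17 targets of activin and TGF-beta signals past the filter, a list that shares SMAD7, SKIL and TGIF1 with the branch, split after GO. There were 9 above 0 and 4 below, with a median of 0.11. CCN2, a matricellular protein that also answers to the YAP pathway, was highest at 0.80, then BCL2L1, an inhibitor of apoptosis, at 0.36. SMAD7 and SKIL were lowest. After rGO, 11 of the 13 were below control with a median of -0.05, small against the 0.116 robust SD of that comparison. Medians over all genes past the filter were 0.01 for GO and -0.01 for rGO, with 51.1% and 46.8% of these genes above 0.

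**Figure D4:**
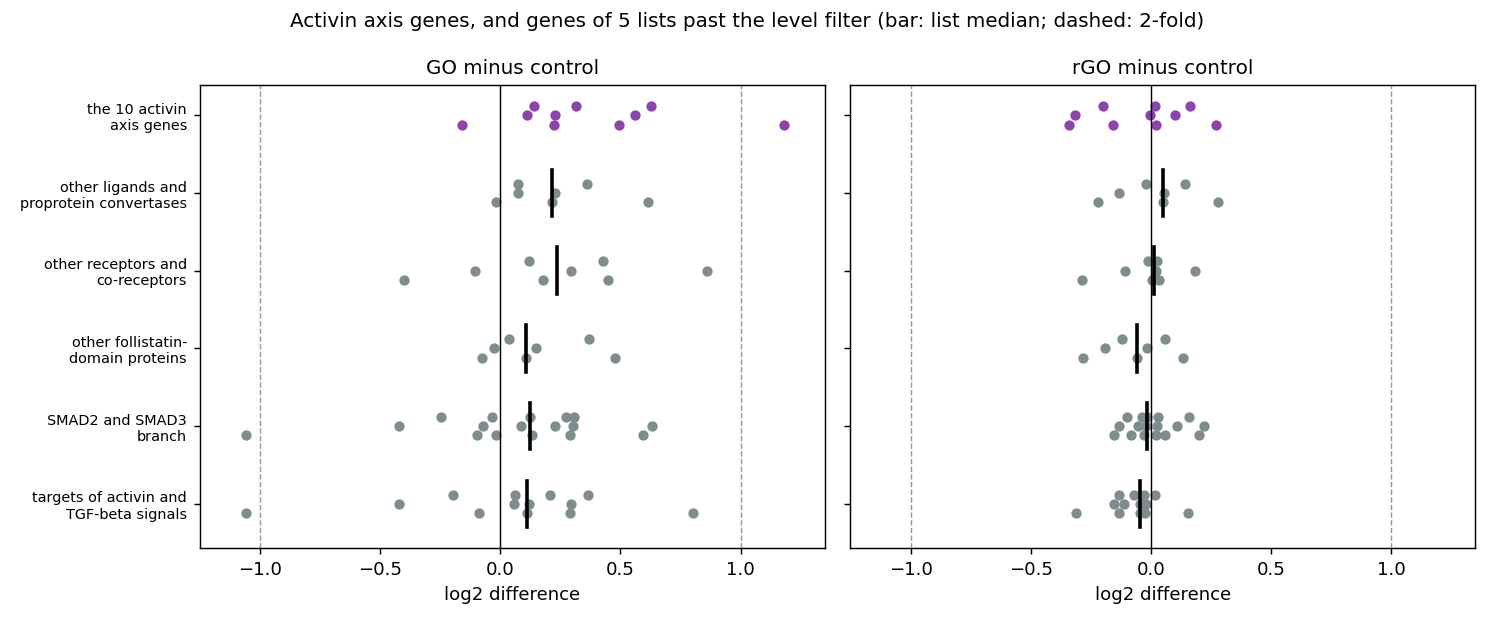
Log2 differences (horizontal axis) from control after GO, left, and rGO, right, with 1 point per gene for all 10 activin axis genes in purple and for the genes of 5 pathway lists past the level filter in grey. Black bars are list medians, and dashed lines mark 2-fold; after GO only FSTL3 (1.18) lies past 2-fold on the higher side and SMAD7 (-1.06), drawn in both lists that hold it, on the lower side.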

How the data were processed

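Total RNA of HepG2 cells was converted to biotin-labelled cDNA and hybridised to Affymetrix arrays, per the labels' protocols. The authors' deposited table holds log2 expression values of 33297 probe sets in 3 arrays. RMA and MAS5 are named per the submitters' processing notes, with no role or version; the build and any further scaling are not stated in those notes. Genes were not centred, since values lay between 2.17 and 14.5. Probe sets took their genes from the platform annotation, which can be old: 19460 carried 1 symbol, 1754 carried several and 12083 were unnamed here, and 0 symbols changed on matching to RefSeq. A gene was read from its probe set with the highest mean.

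Differences of log2 values between arrays were counted past 2-fold, since 1 array per group allows no test. The members and lists were chosen with earlier results of these data known. Named beside the members were INHA, the 2 highest and 2 lowest genes of each list after GO, and the 5 genes nearest to FSTL3 in pattern. FURIN, SMAD2 and SMAD4, the TGIF1 overlap and the rGO value of BAMBI were named after their values were seen. Alternatives were quantile normalization, median centring, loess (span 0.3), averaged probe sets, other level filters and 1.5-fold. An alignment of proteins had been planned and was not run. Python 3.11.15, numpy 2.4.6, pandas 2.3.3, statsmodels 0.14.6 and matplotlib 3.10.9 were used.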

Additional observations from a re-analysis of the deposited data

How the results depend on the processing

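The 30 differences of the 10 genes shifted by at most 0.04 under quantile normalization, median centring or loess, and 1 changed sign (INHBC, rGO minus control). Averaging probe sets could not shift them, since each of the 10 genes was read by 1 probe set. FSTL3 ranged from 1.18 to 1.21 for GO minus control under these settings. Level filters do not alter the difference of a gene, so they could not move FSTL3. At 1.5-fold, 2 activin axis genes passed for GO minus control and 2 for GO minus rGO, and among all genes 678 passed after GO, 17 after rGO and 555 between the exposed arrays, against 129, 2 and 88 at 2-fold. For rGO minus control the total was 4 with no filter, 1 with the 60th percentile filter and 3 with the filter on the higher array. With no filter, medians after GO were 0.074 for other ligands, 0.12 for other receptors and 0.063 for targets; after rGO, -0.021 for ligands, -0.012 for receptors (-0.0021 with median centring) and 0.020 for follistatin-domain proteins, all of opposite sign; and for GO minus rGO, 0.091 for ligands, 0.12 for receptors, 0.077 for follistatin-domain proteins and 0.13 for targets. With the 60th percentile filter they were 0.37 for follistatin-domain proteins, 0.27 for the SMAD branch and 0.25 for targets after GO, 0.025 for the SMAD branch after rGO, of opposite sign, and 0.34 for follistatin-domain proteins in GO minus rGO, where the filter on the higher array gave 0.13. These filters change which genes enter a list. No paired analysis was possible because each group has 1 array. Signal near background limits FSTL1 and INHBA.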

Other observations

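In RefSeq gene order, among the measured protein-coding genes 2 places to each side, the neighbours of FSTL3 were close to control after GO: RNF126 stood at -0.04, PRSS57 at -0.05, FGF22 at -0.03 and PALM at 0.08. Near FST the values were more mixed. ITGA2, the collagen-binding integrin subunit, stood at 11.12 in the GO array, 10.09 in the rGO array and 10.05 in the control, a GO difference of 1.07. NDUFS4, a subunit of respiratory complex I on the other side of FST, stood at 8.16 in the GO array, 9.03 in the rGO array and 8.88 in the control, a GO difference of -0.72, while MOCS2 stood at -0.25 and ARL15 at 0.0058. Beside INHBC and INHBE on chromosome 12, R3HDM2 stood at 0.29 after GO and GLI1, read below the level filter, at -0.33. These neighbours were looked at after the data had been seen.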
